A study of Mus musculus with 24 samples.

Results

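The genes described here encode the enzymes of cholesterol and fatty acid synthesis and the proteins that regulate them. A gene was included where its symbol in the expression table equals a name on the list, and this found 32 of 32 genes among 25965 entries. RNA-seq was done on differentiating male mouse embryonic stem cells (mESCs) after knockdown of *Smarcc1* or *Smarca4*, which encode subunits of the BAF chromatin remodelling complex. Values were deposited as log2 rpm, the log2 of a gene's share of all reads in a library, for 20 of the 24 samples, and all 32 genes passed the filter of a mean log2 rpm of at least 0 that 13296 entries passed.

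All libraries came from C57/Bl6 male mESCs that had been expanded in 2i medium and then weaned into DME HiHi media to differentiate. Every culture received a viral hairpin on day 2 and puromycin from day 3, so the controls carry a hairpin and the selection as well. The control group, Nons, carried a nonsilencing hairpin and has 4 libraries, 1 on each of days 4, 5, 6 and 7, with 15717152 to 27472885 reads. *Smarcc1* knockdown was done with the hairpins Smarcc1.6 and Smarcc1.7, and its 8 libraries, 1 per hairpin and day, hold 15754138 to 22472113 reads. *Smarca4* knockdown was done with the hairpins Smarca4.4 and Smarca4.6, and its 8 libraries hold 6829596 to 23551166 reads. The lowest depth is that of Smarca4.4 on day 5. Another 4 samples, a Nons replicate 2, were not analysed here. Each day therefore has 1 Nons library, the spread behind every test comes from the pairs of hairpins, and a difference from Nons cannot be told apart from a peculiarity of the single Nons culture.

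Cells make cholesterol from acetyl-CoA through mevalonate, isoprenoid diphosphates, squalene and lanosterol, and the isoprenoids also supply protein prenylation, ubiquinone and dolichol. When sterols in the endoplasmic reticulum fall, Scap carries the SREBP proteins to the Golgi apparatus, where they are cut to release transcription factors for these same enzymes, while Insig proteins hold Scap back when sterols are plentiful. Fatty acids are made from cytosolic citrate by ATP citrate lyase, acetyl-CoA carboxylase and fatty acid synthase, then elongated and desaturated, and both pathways supply the membranes of dividing cells such as embryonic stem cells.

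The knocked-down genes were measured first, as a check of the labels. *Smarcc1* stood at 451, 260, 127 and 172 rpm in Nons on days 4 to 7, at 163, 61.5, 43.6 and 71.5 rpm with hairpin Smarcc1.6, and at 192, 109, 76.4 and 80.9 rpm with Smarcc1.7. Each of these 8 knockdown libraries was lower than Nons of its day, at 23.7% to 60.1% of the Nons value. *Smarca4* stood at 222, 151, 90.4 and 160 rpm in Nons, at 42.2 to 56.0 rpm over the days with Smarca4.4, and at 62.9, 36.3, 19.5 and 43.6 rpm with Smarca4.6. Each of the 8 was again lower than Nons of its day, at 21.6% to 55.3%. Averaged over days, *Smarcc1* differed by -1.33 in its knockdown (log2, standard error (SE) 0.205, limma, Benjamini-Hochberg adjusted *p* = 0.00115, lower in 8 of 8 libraries) and *Smarca4* by -1.79 (SE 0.288, adjusted *p* = 0.00277, lower in 8 of 8). In Nons itself *Smarcc1* was lower on days 5 to 7 than on day 4, so its level also depends on the day.

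Libraries of days 5 and 6 differed from each other in a way that follows the length of genes. For each library the median deviation from the day's mean was taken over the genes with exons of at least 7523 bases, the longest 20%. The same median was taken over those with at most 2366 bases, the shortest 20%, and this second median was subtracted from the first. On day 4 this measure lay between -0.11 and 0.09 (log2). On day 5 it was 0.43 in Smarcc1.7 and 0.37 in Smarca4.4 but -0.44 in Smarcc1.6 and -0.53 in Smarca4.6, and on day 6 it was 0.64 in Smarcc1.7 and 0.30 in Smarca4.4 but -0.37, -0.26 and -0.32 in Smarcc1.6, Smarca4.6 and Nons. Smarcc1.7 and Smarca4.4, a hairpin of each knockdown, thus stood highest on both days. On day 7 the measure was 0.26 in Smarcc1.7 and between -0.17 (Nons) and 0.06 in the other libraries, with Smarca4.4 at -0.16. The GC content of genes also separated libraries, with high-GC minus low-GC genes at 0.73 in Smarca4.6 and -0.69 in Smarcc1.6 on day 5. Values of *Acaca* (17.1 kb of exons), *Fasn* (10.9 kb), *Lss* (10.8 kb) and several shorter genes moved with the length measure, as given below, and the cause of the trends was not tested.

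The cell type markers changed over the same days. Of 7 pluripotency genes, 6 fell from day 4 to day 7, and their sum, led by *Pou5f1*, went from 1840 to 2280 rpm on day 4 to 379 to 754 rpm on day 7. The 4 primed epiblast genes, led by *Dnmt3b*, summed to 1090 to 1610 rpm and then 268 to 435 rpm, with 2 of 4 lower. Genes of trophoblast and simple epithelium, of which *Krt18* was the most abundant in 4 of 5 libraries on each of these days and *Krt8* in the other, while *Cdx2* and *Elf5* stayed under a median of 0.5 rpm, summed to 23.6 to 31.3 rpm on day 4 and 1470 to 3280 rpm on day 7. The 11 endoderm genes, of which *Cubn* was the most abundant in 4 of 5 libraries on day 4 and *Dab2* in 5 of 5 on day 7, went from sums of 6.53 to 12.3 rpm to sums of 35.7 to 48.8 rpm, with medians under 0.5 rpm for *Sox17*, *Sox7*, *Afp*, *Ttr* and *Apoa1*. The 4 fibroblast genes went from 3.41 to 7.24 rpm to 23.3 to 113 rpm, with *Col1a1* the most abundant in the knockdown libraries of both days and *Dcn* and then *Col1a2* in Nons. The 6 mesoderm genes went from 15.1 to 19.2 rpm, with *Eomes* the most abundant, to 12.5 to 30.8 rpm, with *Hand1* the most abundant in 4 of 5 libraries. The 4 neural genes went from 65.7 to 118 rpm, with *Tubb3* the most abundant, to 99.1 to 135 rpm, with *Nes* the most abundant. Of the genes tested, 3 of 5 endoderm genes were higher and 1 lower, 2 of 3 fibroblast genes higher and 1 lower, 1 of 3 mesoderm genes higher, 1 of 4 neural genes higher and 1 lower (median -0.42), and 2 of 2 simple epithelium genes higher. *T*, *Mixl1*, *Kdr* and *Col3a1* had medians under 0.5 rpm. In these bulk samples fewer cells of a type and less RNA per cell cannot be told apart, and the part of the changing cell types in the results below was not tested.

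**Figure D1:**
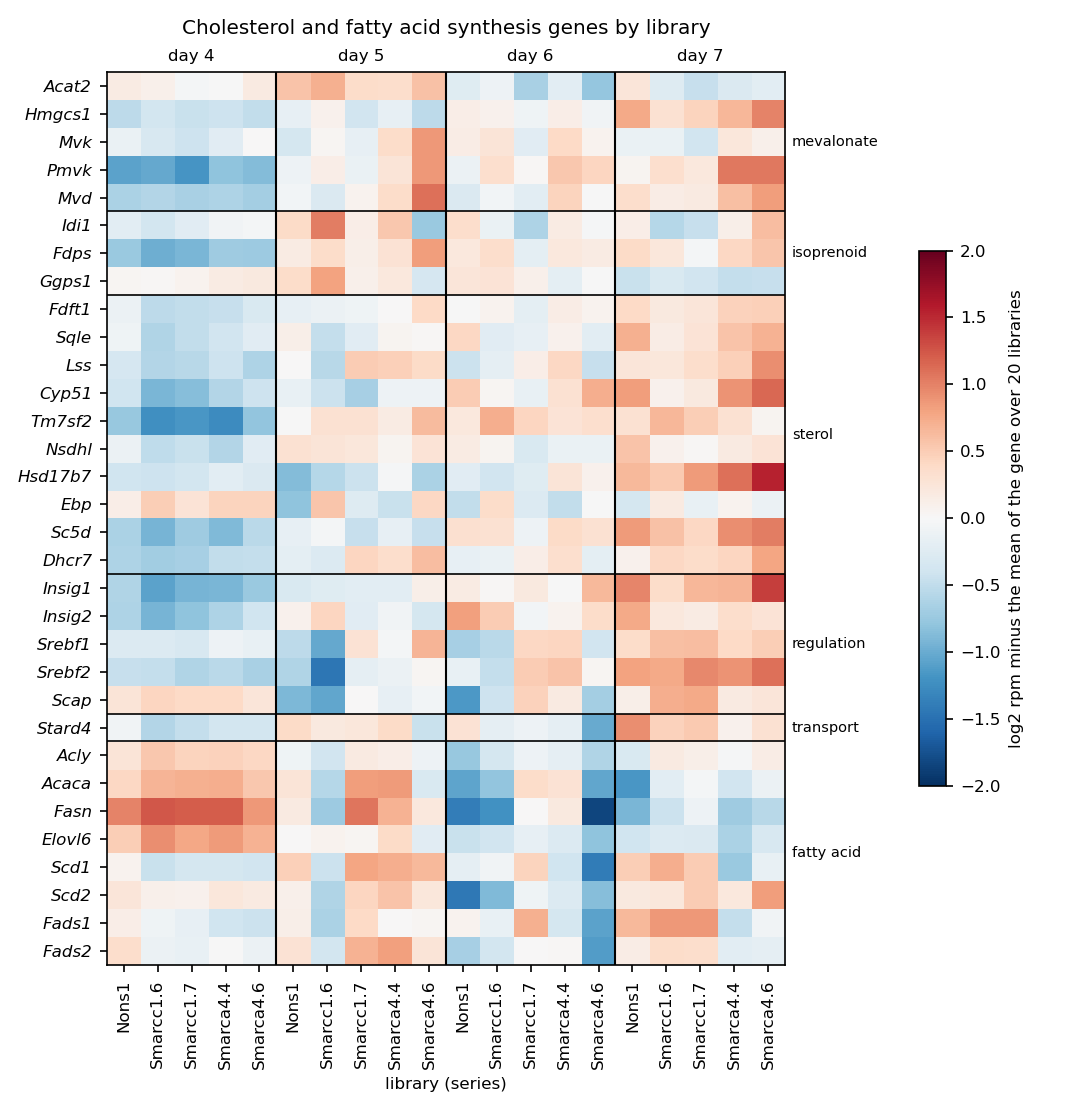
Heat map of the 32 genes (rows, by role) in the 20 libraries (columns, by day and hairpin), coloured by log2 rpm minus the mean of the gene over the 20 libraries. Most genes of sterol synthesis and its regulation are highest on day 7, while *Fasn* and *Elovl6* are highest on day 4, and *Acaca* is highest on day 4 in 3 of the 5 cultures and on day 5 in 2.

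From day 4 to day 7 most genes of cholesterol synthesis rose in the mean of the 3 groups, while *Acly*, *Acaca*, *Fasn* and *Elovl6* of fatty acid synthesis fell. Of the 32 genes, 19 rose, against 35.7% of all genes tested, and 5 fell, against 28.8%, so that 24 were called, against 64.5%. Over all genes 55.4% of the calls were higher, but 46.1% after centring each library on its median gene and 47.9% after quantile normalization. After these scalings 17 and 19 of the 32 rose. The median change of the 32 was 0.70 (log2), beside 0.08 for all genes. The 19 that rose were 3 of 5 mevalonate genes, 1 of 3 isoprenoid genes, 9 of 10 sterol genes, 4 of 5 regulators, the sterol carrier *Stard4* and 1 of 8 fatty acid genes. The 5 that fell were 4 of the 8 fatty acid genes and the isoprenoid gene *Ggps1*. With the whole day 4 and day 7 sets side by side, 18 genes had all 5 day 7 libraries above all 5 day 4 libraries, against 35.0% of all genes, and 5 had them all below, against 28.2%.

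**Figure D2:**
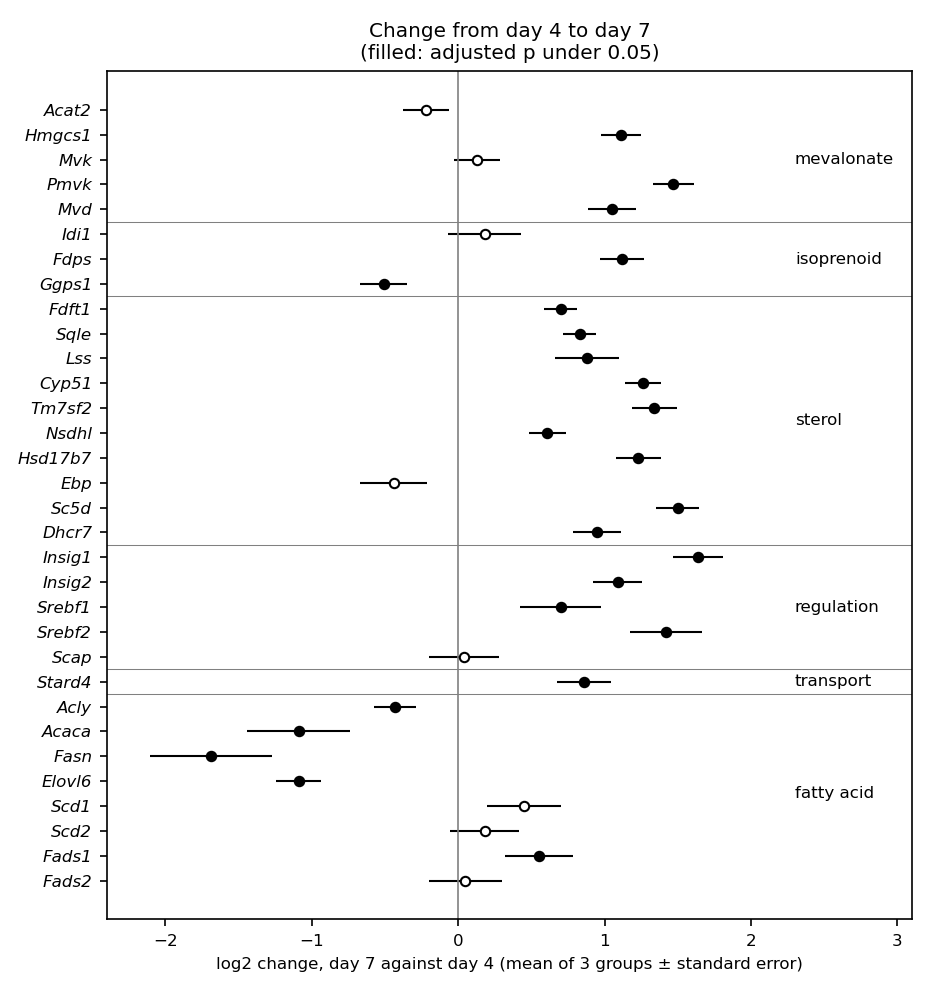
Change from day 4 to day 7 of each of the 32 genes (log2, averaged over the 3 groups, with bars of 1 standard error), ordered by role, with filled points for genes called at an adjusted *p* under 0.05. Sterol genes other than *Ebp* lie above 0, and *Fasn*, *Acaca*, *Elovl6* and *Acly* lie below 0.

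The mevalonate genes convert acetyl-CoA to activated isoprene units. *Hmgcs1*, the synthase that joins acetyl-CoA to acetoacetyl-CoA, stood on day 4 at 7.70 in Nons, 7.82 and 7.74 with Smarca4.4 and Smarca4.6, and 7.87 and 7.79 with Smarcc1.6 and Smarcc1.7 (log2 rpm). On day 7 the same cultures stood at 8.99, 8.89, 9.23, 8.54 and 8.67. The days did not overlap, and *Hmgcs1* rose by 1.11 (log2, SE 0.136, limma adjusted *p* = 1.2e-05, higher in 5 of 5 cultures). *Pmvk*, phosphomevalonate kinase, lay at 4.05 to 4.42 on day 4 and 5.29 to 6.29 on day 7, with its largest step before day 5, and rose by 1.47 (SE 0.142, adjusted *p* = 1.51e-06, 5 of 5). *Mvd*, which decarboxylates the mevalonate diphosphate, rose by 1.05, from 4.63 to 4.71 on day 4 to 5.45 to 6.14 on day 7. The thiolase gene *Acat2* (change -0.22) and the mevalonate kinase gene *Mvk* (0.13) did not pass the test, and their days overlapped. Reads of *Acat2* are hard to separate from those of its near copy *Acat3*, which lay at 5.79 to 7.2 log2 rpm. The 5 genes together summed to 338.9 to 360.8 rpm on day 4 and 534.9 to 824.7 rpm on day 7.

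The promoter of *Hmgcs1* is shown because the gene moved with most of the others over the days and because its promoter holds the letters of a sterol regulatory element, the DNA motif that SREBP proteins bind. Promoter sequences here run from 250 bases before to 50 bases after the annotated start, are written 5′ to 3′ on the strand of the gene, and come from RefSeq in build GRCm38.p6. This one is chr13:119690101-119690400 on the + strand. Capitals mark the matches to the motifs searched on both strands, which were the sterol regulatory elements TCACNCCAC and ATCACCCCA, the E-box CACGTG and the CCAAT box of the factor NF-Y, written ATTGG where it lies on the opposite strand.
Hmgcs1: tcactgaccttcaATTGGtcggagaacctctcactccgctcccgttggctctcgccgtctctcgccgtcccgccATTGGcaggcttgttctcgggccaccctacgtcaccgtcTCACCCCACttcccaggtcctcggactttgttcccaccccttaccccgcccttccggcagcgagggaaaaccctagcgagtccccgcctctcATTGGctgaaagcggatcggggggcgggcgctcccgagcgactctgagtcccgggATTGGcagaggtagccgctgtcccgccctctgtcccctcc
TCACNCCAC begins 137 bases before the start of *Hmgcs1*, and CCAAT boxes begin 237, 176 and 45 bases before it, with 1 more after the start. TCACNCCAC occurs in 1.24% of all 32851 promoter entries, and among the 25 genes of the list with an entry *Hmgcs1* is the 1 that holds it.

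Of the 3 isoprenoid genes, *Fdps* rose, *Ggps1* fell and *Idi1* did not pass the test. *Fdps*, farnesyl diphosphate synthase, lay at 6.36 to 6.62 log2 rpm on day 4, 7.45 to 8.17 on day 5 and 7.30 to 7.88 on day 7. Its change from day 4 to day 7 was 1.12 (SE 0.148, limma adjusted *p* = 2.27e-05, 5 of 5 cultures). *Ggps1*, which makes the geranylgeranyl diphosphate used in prenylation, lay at 5.34 to 5.51 on day 4 and 4.84 to 5.00 on day 7, and fell by 0.51 (SE 0.159, adjusted *p* = 0.0134, 5 of 5). Without hairpin Smarca4.6 the adjusted *p* of *Ggps1* was 0.0504. *Idi1*, isopentenyl diphosphate isomerase, changed by 0.18 with 3 cultures higher and 2 lower. Part of the exons of *Fdps* (26.7%) overlaps the predicted gene *Gm43738* on the same strand. Smaller parts of *Hmgcs1* (12.1%, *Gm48342*), *Idi1* (9.2%, *Gm48574*) and *Ggps1* (5.4%, *Arid4b*) overlap genes on the opposite strand. Whether counting used the strand is not given in the sources used here, so which gene such reads were counted for is not known.

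The 10 sterol genes make squalene and turn it into cholesterol, and 9 of them rose. *Cyp51*, lanosterol demethylase, stood on day 4 at 6.93 log2 rpm in Nons, 6.74 and 6.92 with Smarca4.4 and Smarca4.6, and 6.42 and 6.47 with Smarcc1.6 and Smarcc1.7. On day 7 the values were 8.17, 8.23, 8.48, 7.41 and 7.52. Both *Smarcc1* hairpins stood below the other cultures on both days, and the days did not overlap, with a rise of 1.26 (SE 0.123, limma adjusted *p* = 1.64e-06, 5 of 5). *Sc5d*, lathosterol desaturase, stood at 4.43, 4.19, 4.52, 4.14 and 4.35 on day 4, in the same order of cultures, and at 5.91, 5.99, 6.09, 5.65 and 5.48 on day 7. It was higher on each day than on the day before in the median of the 5 cultures, at 4.35, 4.90, 5.37 and 5.91, and rose by 1.5 (SE 0.146, adjusted *p* = 1.59e-06, 5 of 5).

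*Sqle*, the squalene epoxidase that adds the first oxygen, rose by 0.83 (SE 0.111, limma adjusted *p* = 2.81e-05, 5 of 5), from 6.39 to 6.91 log2 rpm on day 4 to 7.14 to 7.70 on day 7. *Fdft1*, squalene synthase, rose by 0.70 and *Lss*, which closes the rings to lanosterol, by 0.88. *Hsd17b7*, a 3-ketosterol reductase, lay at 4.10 to 4.30 on day 4 and 4.12 to 4.77 on day 6 but 5.03 to 6.05 on day 7, a rise of 1.23. *Tm7sf2*, a sterol C14 reductase, lay at 2.53 to 3.04 on day 4 and at 3.79 to 4.43 on day 5, close to its range of 3.85 to 4.46 on day 7, and rose by 1.34. *Nsdhl*, which with *Hsd17b7* and others removes methyl groups, rose by 0.61, and *Dhcr7*, the reductase of the last step, by 0.95. *Ebp*, the sterol isomerase, changed by -0.44 (SE 0.229, adjusted *p* = 0.11), lower in 5 of 5 cultures but with overlapping days. It was called lower after quantile normalization (-0.73, adjusted *p* = 0.0353) and after the correction of each library for exon length and GC content (-0.36, 0.0481). The 10 genes summed to 406.9 to 524.1 rpm on day 4 and 747.7 to 1146 rpm on day 7. Some exon sequence is shared with neighbours, 18.3% of *Fdft1* with *Ctsb* on the opposite strand, 12.1% of *Tm7sf2* with *Vps51* on the same strand and 3.8% of *Cyp51* with *Akap9*.

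The promoter of *Cyp51* is shown because this gene moved both over the days and with *Smarcc1* knockdown, as given below. It is chr5:4104648-4104947 on the - strand in the same build, and capitals again mark the motifs.
Cyp51: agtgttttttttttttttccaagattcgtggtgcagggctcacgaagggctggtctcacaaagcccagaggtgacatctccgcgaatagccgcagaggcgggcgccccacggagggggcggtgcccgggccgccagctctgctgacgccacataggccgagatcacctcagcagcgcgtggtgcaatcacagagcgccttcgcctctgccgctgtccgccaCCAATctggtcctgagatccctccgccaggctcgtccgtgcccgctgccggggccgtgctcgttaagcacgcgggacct
The window holds 1 CCAAT box, 29 bases before the start, and no match to the sterol regulatory elements or the E-box, which says only that these letters are not in these 300 bases.

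The 5 regulators control the enzymes through sterol sensing, and 4 of them rose. *Insig1*, which retains Scap in the endoplasmic reticulum, stood on day 4 at 6.25 in Nons, 5.94 and 6.11 with Smarca4.4 and Smarca4.6, and 5.78 and 5.91 with Smarcc1.6 and Smarcc1.7 (log2 rpm). On day 7 it stood at 7.82, 7.53, 8.23, 7.22 and 7.51. The days did not overlap, and the rise of 1.64 was the largest of the 32 (SE 0.172, limma adjusted *p* = 2.96e-06, 5 of 5). *Srebf2*, which encodes the SREBP protein that mainly drives sterol genes, stood on day 4 at 7.25, 7.18, 7.07, 7.23 and 7.11 in the same order, and on day 7 at 8.52, 8.61, 8.81, 8.47 and 8.67. On day 5 it ranged from 6.27 in Smarcc1.6 to 7.75 in Smarca4.6, so the cultures were close together on days 4 and 7 and apart in between. Its rise was 1.42 (SE 0.248, adjusted *p* = 0.000248, 5 of 5).

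*Insig2*, the second retention gene, rose by 1.09 (SE 0.166, limma adjusted *p* = 8.22e-05, 5 of 5), from 3.96 to 4.5 on day 4 to 5.06 to 5.66 on day 7. *Srebf1*, whose SREBP product mainly drives fatty acid genes, rose by 0.70 (SE 0.276, adjusted *p* = 0.0391, 5 of 5), and without Smarca4.4 or Smarca4.6 the adjusted *p* was 0.102 and 0.12, and 0.0604 after centring each library on its median gene. *Scap*, the sterol sensor itself, changed by 0.04 (SE 0.239), with 3 cultures higher and 2 lower. Part of its exons (13.2%) overlaps *5830462I19Rik* on the opposite strand. After a correction of each library for exon length and GC content, *Scap* was lower on day 7 by -0.37 (adjusted *p* = 0.00314), the 1 case in which a called value had the other direction, and the cause was not tested. *Stard4*, which carries sterol between membranes, rose by 0.86 (SE 0.186, adjusted *p* = 0.00131, 5 of 5). The 5 regulators summed to 286.4 to 316.4 rpm on day 4 and 647.2 to 874.5 rpm on day 7.

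The promoters of *Insig1* and *Srebf2* are shown as those of the regulators with the largest rise and with the second sterol regulatory element. They are chr5:28071162-28071461 and chr15:82147019-82147318, both on the + strand.
Insig1: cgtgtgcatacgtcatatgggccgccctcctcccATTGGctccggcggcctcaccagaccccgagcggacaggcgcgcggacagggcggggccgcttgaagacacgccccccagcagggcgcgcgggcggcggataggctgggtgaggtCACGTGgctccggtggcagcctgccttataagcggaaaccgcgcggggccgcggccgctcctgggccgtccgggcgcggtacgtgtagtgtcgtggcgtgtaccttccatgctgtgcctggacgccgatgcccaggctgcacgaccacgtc
Srebf2: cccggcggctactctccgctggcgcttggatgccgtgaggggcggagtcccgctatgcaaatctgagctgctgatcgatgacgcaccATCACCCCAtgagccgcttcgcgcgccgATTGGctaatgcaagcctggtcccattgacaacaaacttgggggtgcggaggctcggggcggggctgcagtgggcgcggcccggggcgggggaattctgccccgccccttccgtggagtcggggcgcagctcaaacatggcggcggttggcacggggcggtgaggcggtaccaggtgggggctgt
*Insig1* holds CACGTG 101 bases before its start and a CCAAT box on the opposite strand 216 bases before it. *Srebf2* holds ATCACCCCA 163 bases before its start, a match found in 0.280% of all promoter entries and in no other gene of the list with an entry, and a CCAAT box on the opposite strand 135 bases before the start.

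**Figure D3:**
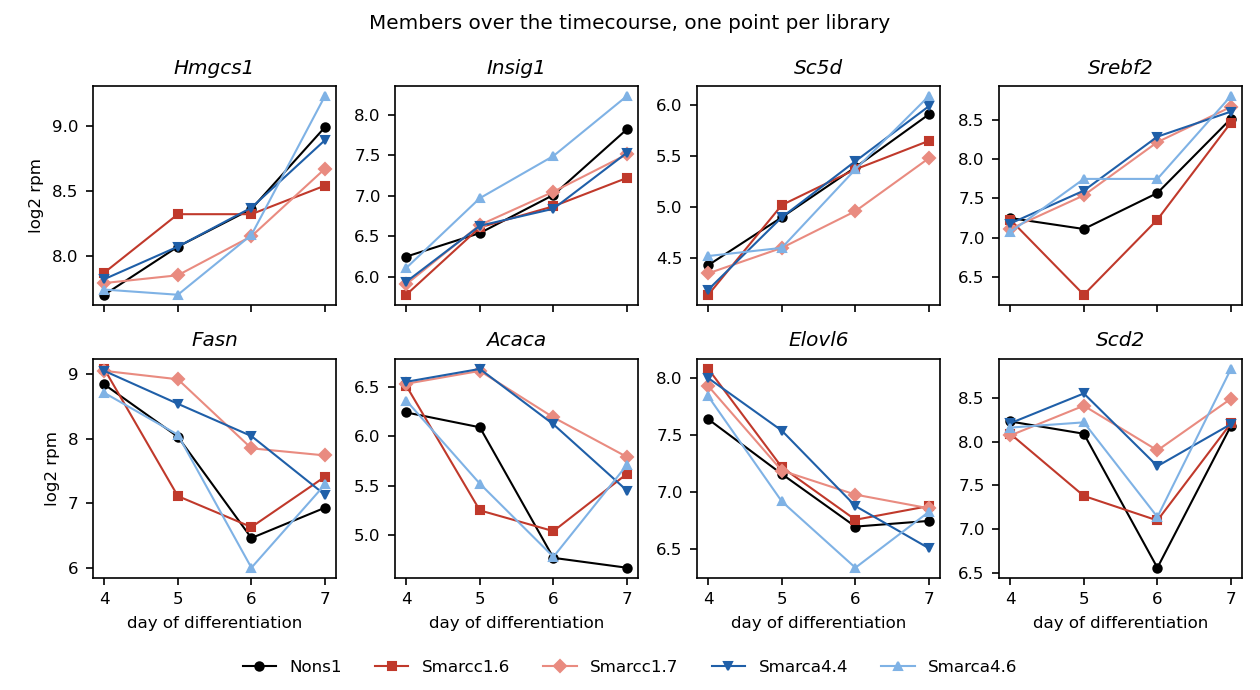
Log2 rpm of 8 genes on days 4 to 7, with 1 point per library, for genes chosen after their values were seen. *Hmgcs1*, *Insig1*, *Sc5d* and *Srebf2* are higher on day 7 than on day 4 in 5 of 5 cultures, *Fasn*, *Acaca* and *Elovl6* are lower, and *Scd2* dips on day 6.

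Of the 8 fatty acid genes 4 fell from day 4 to day 7, *Fasn*, *Acaca*, *Elovl6* and *Acly*, 1 rose and 3 did not pass the test. *Fasn*, fatty acid synthase, stood on day 4 at 8.84 in Nons, 9.05 and 8.71 with Smarca4.4 and Smarca4.6, and 9.08 and 9.05 with Smarcc1.6 and Smarcc1.7 (log2 rpm). On day 7 it stood at 6.93, 7.13, 7.29, 7.41 and 7.74. The lowest day 4 library was above the highest day 7 library, and *Fasn* fell by 1.69 (SE 0.418, limma adjusted *p* = 0.00322, lower in 5 of 5), the largest fall of the 32. *Acaca*, acetyl-CoA carboxylase, which makes the malonyl-CoA that *Fasn* uses, stood at 6.24, 6.55, 6.36, 6.51 and 6.53 on day 4 and 4.67, 5.45, 5.71, 5.62 and 5.79 on day 7. It fell by 1.09 (SE 0.352, adjusted *p* = 0.0161, 5 of 5).

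*Elovl6*, which elongates palmitate, stood at 7.64, 8.0, 7.84, 8.08 and 7.93 on day 4 in the same order and at 6.75, 6.51, 6.83, 6.88 and 6.86 on day 7. It fell by 1.09 with less spread between hairpins (SE 0.155, limma adjusted *p* = 4.63e-05, 5 of 5). *Acly*, ATP citrate lyase, whose acetyl-CoA feeds both pathways, fell by 0.43 (SE 0.142, adjusted *p* = 0.0185, 5 of 5), with an adjusted *p* of 0.0792 without Smarca4.4 and 0.0924 after quantile normalization. *Fads1*, the delta-5 desaturase of long polyunsaturated fatty acids, changed by 0.55 (SE 0.231, adjusted *p* = 0.05, higher in 4 of 5 cultures), just under the threshold. Without Smarca4.4, without Smarca4.6, without the Smarca4.4 library of day 5, after centring and with a filter of at least 10 rpm, the adjusted *p* of *Fads1* was 0.0995, 0.186, 0.0626, 0.0921 and 0.0545. *Scd1* (0.45), *Scd2* (0.18) and *Fads2* (0.05), which also encode desaturases, did not pass the test, and *Scd1* and *Scd2* are close copies whose reads may be split between them. The 8 genes summed to 1596 to 1805 rpm on day 4, 856.5 to 1672 on day 5, 603.1 to 1168 on day 6 and 1008 to 1324 on day 7.

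The promoter of *Fasn* is shown as that of the gene with the largest fall, for comparison with those of the genes that rose. It is chr11:120824498-120824797 on the - strand.
Fasn: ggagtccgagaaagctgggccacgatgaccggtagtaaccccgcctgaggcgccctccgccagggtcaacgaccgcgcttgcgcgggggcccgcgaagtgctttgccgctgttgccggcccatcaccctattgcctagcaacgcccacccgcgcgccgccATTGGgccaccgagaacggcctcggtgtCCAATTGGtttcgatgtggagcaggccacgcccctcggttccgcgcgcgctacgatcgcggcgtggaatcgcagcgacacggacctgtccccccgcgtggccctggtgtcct
It holds CCAAT boxes 90, 62 and 59 bases before the start, of which the last 2 overlap as CCAATTGG, 1 on each strand, and no match to the other motifs marked. CCAAT boxes were thus found before a gene that fell as well as before genes that rose.

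Of the 32 genes, 25 have a promoter entry, 33 entries in all, and *Scd2*, *Fdps*, *Sqle*, *Scd1*, *Fads1*, *Stard4* and *Fdft1* have none. A CCAAT box lies in 21 of the 33 entries (63.6%, in 20 genes), beside 37.4% of all 32851 entries. At least 2 boxes lie in 11 entries, those of *Dhcr7*, *Ebp*, *Fasn*, *Ggps1*, *Hmgcs1*, *Hsd17b7*, *Idi1*, *Insig2*, *Mvd*, *Mvk* and *Nsdhl*, beside 11.7% of all entries. The E-box CACGTG lies in 6 entries of *Dhcr7*, *Hsd17b7*, *Insig1*, *Sc5d* and *Scap* (18.2%, beside 7.15%), and the GC box GGGCGG, not capitalised, in 24 entries (72.7%, beside 35.7%). Of the 43 CCAAT boxes, 16 begin 50 to 150 bases before a start. These counts describe letters, entries of 1 gene can overlap, and whether any factor binds them was not measured.

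The change over the days came in different steps for different roles. From day 4 to day 5, 16 genes were called, against 38.7% of all genes, 13 of them higher, against 19.5%, and 3 lower, against 19.2%, with a median of 0.30 beside -0.03 for all genes. Those that rose were led by *Tm7sf2* (1.22), *Pmvk* (1.16), *Fdps* (1.12) and *Mvd* (0.82), followed by *Dhcr7*, *Insig2*, *Insig1*, *Lss*, *Nsdhl*, *Stard4*, *Sc5d*, *Acat2* and *Fdft1* at 0.71 to 0.32. *Scap* (-0.83), *Elovl6* (-0.66) and *Acly* (-0.46) fell. Without the culture of Smarca4.4, 8 genes were called, and without only its day 5 library, that of lowest depth, 14.

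From day 5 to day 6, 6 of the 8 fatty acid genes fell, and *Acat2* fell as well, while *Acaca* and *Fads1* did not pass the test. After the correction for exon length and GC content *Acaca* was called lower as well (-0.75, limma adjusted *p* = 0.00585). In this step 10 genes were called, against 32.3% of all genes, 3 higher, against 17.0%, and 7 lower, against 15.3%, with a median of -0.14 beside -0.01. *Cyp51* (0.59), *Sc5d* (0.50) and *Hsd17b7* (0.44) rose. *Fasn* (-1.21), *Scd2* (-0.96), *Acat2* (-0.90), *Fads2* (-0.79), *Scd1* (-0.75), *Elovl6* (-0.47) and *Acly* (-0.40) fell. *Scd2*, the desaturase gene with the most reads per kb of exon, stood on day 5 at 8.09 in Nons, 8.55 and 8.22 with the *Smarca4* hairpins and 7.38 and 8.41 with the *Smarcc1* hairpins, and on day 6 at 6.56, 7.72, 7.14, 7.10 and 7.90 (log2 rpm). Each culture was lower on day 6, by amounts that differed, and on day 7 they were back at 8.18, 8.20, 8.83, 8.21 and 8.49. Fewer of the 32 were called without Smarcc1.7, without Smarca4.4, without Smarca4.6 and without the Smarca4.4 library of day 5 alone. *Fasn* was then not called in any of the 4 fits, with changes of -1.11, -1.47, -0.95 and -1.13. Over all genes, each fit without a hairpin also called fewer, while the fit without that library alone called about as many. Of the 6 fatty acid genes that fell, *Elovl6* was the 1 still called without Smarca4.6, and *Scd2* the 1 still called without Smarcc1.7.

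From day 6 to day 7, 4 of 10 sterol genes and 3 of 5 regulators rose. Over the 32 genes 13 were called, against 27.5% of all genes, 12 higher, against 16.9%, and 1 lower, against 10.6%, with a median of 0.41 beside 0.15. The rises were *Scd2* (1.19), *Hsd17b7* (1.01), *Srebf2* (0.83), *Scap* (0.82), *Stard4* (0.69), *Insig1* (0.64), *Hmgcs1* (0.60), *Sc5d* (0.52), *Mvd* (0.49), *Sqle* (0.46), *Acly* (0.43) and *Fdft1* (0.34), and *Ggps1* (-0.53) fell. This step depends on the scale. Over all genes, 61.5% of calls were higher, but 38.2% after centring each library on its median gene and 44.3% after quantile normalization, and centring moved the median of all genes from 0.15 to -0.05. After centring, 6 of the 32 were called, 5 of them higher, with a median of 0.21, and *Insig1*, *Hmgcs1*, *Sc5d*, *Mvd*, *Sqle*, *Acly* and *Fdft1* were not called. Fewer of the 32 were called without Smarcc1.6, without Smarca4.4 and without Smarca4.6, and each of these fits also called fewer over all genes. Without Smarcc1.7 fewer of the 32 but more over all genes were called. For day 7 against day 4, centring moved the median of all genes from 0.08 to -0.09, and 17 genes were then higher and 5 lower.

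Levels of different genes were compared per kb of exon. Over the 20 libraries the highest medians were those of *Acly* (70.5 rpm per kb), *Hmgcs1* (62.1), *Scd2* (52.8), *Fdps* (43.4), *Insig1* (37.4) and *Cyp51* (34.1), and the lowest were those of *Tm7sf2* (3.82), *Hsd17b7* (3.79) and *Acaca* (3.62). The order changed with the days. On day 4 the median of the 5 cultures was 92.8 rpm per kb for *Acly*, 48.5 for *Fasn*, 48.3 for *Hmgcs1* and 19.9 for *Insig1*. On day 7 it was 73.9 for *Acly*, 14.3 for *Fasn*, 103 for *Hmgcs1* and 59.6 for *Insig1*, so *Hmgcs1* and *Fasn*, level with each other on day 4, were far apart on day 7.

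The 2 hairpins of a gene gave close values on days 4 and 7 and spread apart in between. For *Smarcc1* the median gap between hairpins over the 32 genes was 0.08 (log2) on day 4, 0.52 on day 5, 0.36 on day 6 and 0.12 on day 7, and for *Smarca4* it was 0.11, 0.38, 0.46 and 0.20. Over all genes tested the gaps of days 5 and 6 were 0.53 and 0.47 for *Smarcc1* and 0.41 and 0.37 for *Smarca4*, so the spread is not particular to these genes. *Fasn* had the largest gap on 3 of these occasions. On day 5 it stood at 7.11 log2 rpm with Smarcc1.6 and 8.92 with Smarcc1.7, and on day 6 at 6.63 and 7.85 with the same hairpins and at 8.04 and 6.00 with Smarca4.4 and Smarca4.6. *Acaca* did the same, at 5.25 and 6.66 on day 5 and 5.04 and 6.19 on day 6 for the *Smarcc1* hairpins, and at 6.68 and 5.52, then 6.12 and 4.78, for the *Smarca4* hairpins. In each of these pairs the higher library was the one with the higher length measure, Smarcc1.7 or Smarca4.4, and the part of gene length in these gaps was not tested. Across the 20 libraries the correlation of a gene's deviation with the length measure did not follow exon length alone, at 0.57 for *Lss* (10.8 kb) and 0.77, 0.75 and 0.68 for the shorter *Acly* (5.28 kb), *Scd2* (5.46 kb) and *Fads2* (3.29 kb) (Pearson, a description with no test). With the GC measure it was 0.93 for *Srebf1*, 0.83 for *Srebf2* and 0.77 for *Dhcr7* and *Scap*. It was -0.89 for *Ggps1*, -0.77 for *Insig2* and -0.76 for *Idi1*, but 0.03 for *Insig1* and -0.01 for *Ebp*.

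**Figure D4:**
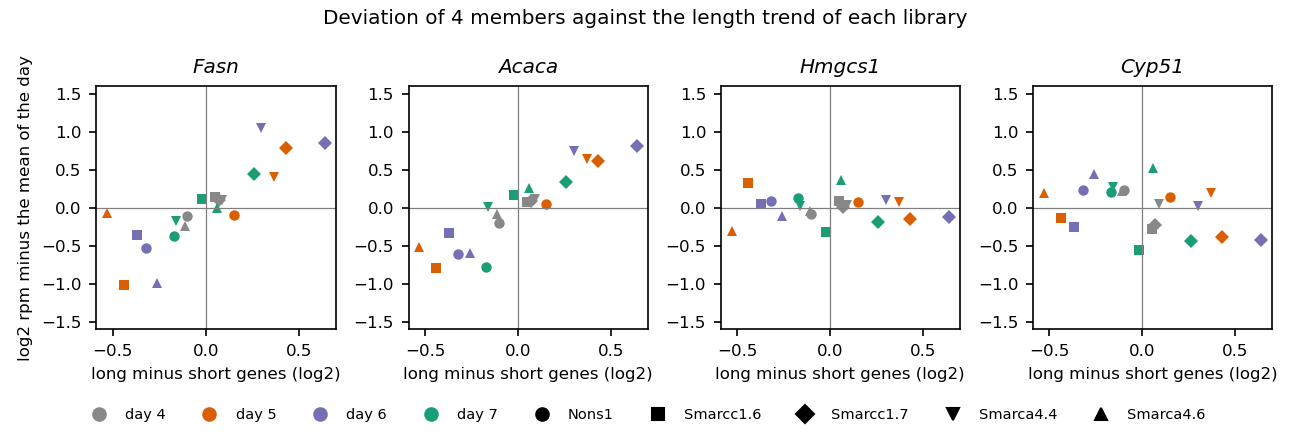
Deviation of 4 genes from the mean of their day (log2, vertical) against the length measure of the library, long minus short genes (log2, horizontal), with 1 point per library and genes chosen after their values were seen. *Fasn* and *Acaca*, with 10.9 and 17.1 kb of exons, lie higher in libraries with a higher measure (Pearson's r of 0.84 and 0.91 over 20 libraries, a description with no test), while for *Hmgcs1* and *Cyp51*, with 4.59 and 4.42 kb, r was -0.1 and -0.38.

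In *Smarcc1* knockdown 2 sterol genes were lower than in Nons, and no other gene of the 32 passed the test. Of the 32 genes 2 were called, against 10.6% of all genes, 0 higher, against 7.54%, and 2 lower, against 3.08%, by limma with an adjusted *p* under 0.05, while 7 had an unadjusted *p* under 0.05, against 22.8% of all genes. With an estimated correlation between the libraries of a culture, 1 of the 32 and 605 of all genes were called, beside 2 and 1412. The share of the 32 called was thus no larger than that of all genes, and the median change was -0.02 beside 0.06. Over all genes 71% of the calls were higher, and 53.7% after quantile normalization. The 2 lower genes were *Sqle*, squalene epoxidase, and *Cyp51*, lanosterol demethylase, and *Lss*, which acts between them, was higher in 4 and lower in 4 of the 8 libraries.

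*Sqle* stood at 6.91, 7.10, 7.41 and 7.70 in Nons on days 4 to 7 (log2 rpm), at 6.39, 6.52, 6.76 and 7.14 with Smarcc1.6, and at 6.50, 6.76, 6.82 and 7.26 with Smarcc1.7. Every knockdown library was below Nons of its day, at 63.9% to 79.2% of its rpm. *Sqle* differed by -0.51 (log2, SE 0.102, limma adjusted *p* = 0.00582, lower in 8 of 8 libraries), with an adjusted *p* of 0.0609 without Smarcc1.6 and 0.0475 where libraries of 1 culture were treated as correlated. *Cyp51* stood at 6.93, 7.18, 7.84 and 8.17 in Nons, at 6.42, 6.90, 7.36 and 7.41 with Smarcc1.6, and at 6.47, 6.66, 7.18 and 7.52 with Smarcc1.7. All 8 were again lower, at 59.1% to 82.8% of Nons of the day, and the rise over the days was present in both hairpins. The difference was -0.54 (SE 0.113, adjusted *p* = 0.00844), with an adjusted *p* of 0.0765 without Smarcc1.7 and 0.0536 with an estimated correlation between the libraries of a culture. Over the 13 alternatives the adjusted *p* ranged from 0.000845 to 0.0609 for *Sqle* and from 0.00174 to 0.0765 for *Cyp51*.

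Other genes were on 1 side of Nons in all 8 *Smarcc1* knockdown libraries without passing the test. *Nsdhl* was lower (-0.30, SE 0.117, limma adjusted *p* = 0.135), as was *Stard4* (-0.37, SE 0.171, adjusted *p* = 0.222), and *Ebp* (0.53, SE 0.210, adjusted *p* = 0.151) and *Elovl6* (0.17, SE 0.143, adjusted *p* = 0.523) were higher. *Scap* was higher in 7 of 8 (0.58, SE 0.220, adjusted *p* = 0.129), with an adjusted *p* of 0.033 without Smarcc1.6. After the correction for exon length and GC content, 4 genes were called, with *Scap* (0.40) and *Ebp* (0.58) beside *Sqle* and *Cyp51*. That fit called 1466 of all 11985 genes tested higher and 641 lower. *Hmgcs1* (-0.09), *Insig1* (-0.21), *Srebf2* (-0.02) and *Fasn* (0.41) did not pass, and *Fasn* was higher in 7 of 8 libraries. The markers of cell types moved as well: 5 of 7 pluripotency genes were higher and 2 of 4 primed epiblast genes lower in *Smarcc1* knockdown. Of the genes tested, 3 of 5 endoderm, 1 of 3 mesoderm and 1 of 4 neural genes were higher, and of 3 fibroblast genes 1 was higher and 1 lower. On day 7 the pluripotency genes summed to 416 rpm in Nons and 754 and 576 rpm with the *Smarcc1* hairpins, and the simple epithelium genes, 2 of 2 tested lower, to 3280 rpm and 1520 and 1470 rpm. The part of these in the lower *Sqle* and *Cyp51* was not tested. On day 4 *Cyp51* stood at 70.3% and 73.0% of Nons and *Sqle* at 69.3% and 74.8%, while the simple epithelium genes summed to 25.6 rpm in Nons and 25.9 and 26.9 rpm with the hairpins, and the primed epiblast genes to 1610 rpm and 1150 and 1300 rpm. The primed epiblast sums were 1720 rpm and 747 and 1410 rpm on day 5, and 520 rpm and 493 and 634 rpm on day 6. On day 7 they were higher than in Nons, with 268 rpm in Nons and 417 and 375 rpm with the hairpins.

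**Figure D5:**
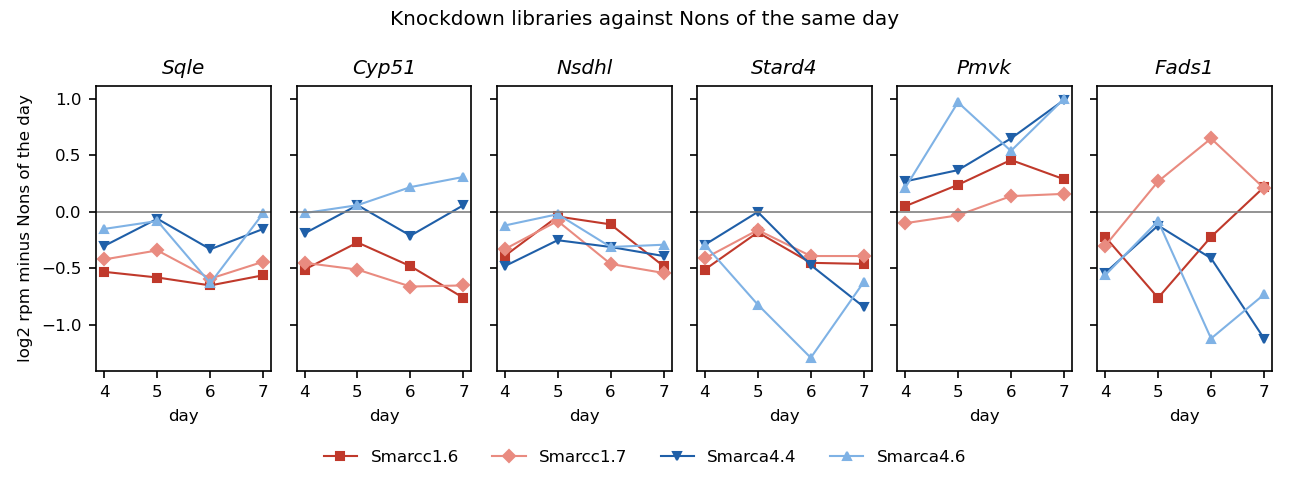
Difference between each knockdown library and Nons of its day (log2) for 6 genes on days 4 to 7, with 1 point per hairpin and day and genes chosen after their values were seen. *Sqle* and *Cyp51* lie below 0 in all 8 *Smarcc1* knockdown libraries, and *Pmvk* lies above 0 in all 8 *Smarca4* knockdown libraries.

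In *Smarca4* knockdown *Pmvk* was higher than in Nons, and no other gene of the 32 passed the test. Of the 32 genes 1 was called, against 6.71% of all genes, 1 higher, against 4.75%, and 0 lower, against 1.96%, by limma, while 8 had an unadjusted *p* under 0.05, against 19.4%, and the median was 0.07 beside 0.06. With an estimated correlation between the libraries of a culture, 0 of the 32 were called. Over all genes 183 were then higher and 75 lower, beside 631 and 261. Over all genes 70.7% of the calls were higher, 60.5% after centring and 52.9% after quantile normalization. *Pmvk* stood at 4.15, 5.12, 5.11 and 5.29 in Nons on days 4 to 7 (log2 rpm), at 4.42, 5.49, 5.76 and 6.28 with Smarca4.4, and at 4.36, 6.10, 5.65 and 6.29 with Smarca4.6. Both hairpins were above Nons on each day, least on day 4 and at 199% and 201% of its rpm on day 7. The difference was 0.63 (log2, SE 0.131, adjusted *p* = 0.013, higher in 8 of 8). The call was lost without Smarca4.4 (adjusted *p* = 0.0525), without Smarca4.6 (0.105) and with an estimated correlation between the libraries of a culture (adjusted *p* = 0.0928), in a range of 0.00096 to 0.105 over 13 alternatives. The exons of *Pmvk* have 57.0% GC, and its highest day 5 value was in Smarca4.6, the library with the highest GC measure (0.73). With the correction for exon length and GC content, chosen after values were seen, its difference was 0.56 (limma adjusted *p* = 0.00096). The part of GC content in the difference of *Pmvk* was not tested.

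*Stard4* was lower in all 8 *Smarca4* knockdown libraries, with 5.00, 5.45, 5.36 and 6.00 in Nons on days 4 to 7 (log2 rpm), 4.71, 5.45, 4.89 and 5.16 with Smarca4.4 and 4.71, 4.63, 4.07 and 5.37 with Smarca4.6. The smallest gap was that of Smarca4.4 on day 5, at 99.8% of Nons. The difference of -0.58 (SE 0.171, limma adjusted *p* = 0.0665) did not pass, and it passed after centring (0.0239), after quantile normalization (0.0275), with limma-voom (0.0481), without Smarca4.4 (0.022) and without the library of lowest depth (0.0156). *Fads1* (-0.58, adjusted *p* = 0.135, and -0.66 with 0.0371 after centring), *Nsdhl* (-0.27, 0.22) and *Sqle* (-0.21, 0.276) were also lower in 8 of 8, and *Hsd17b7* (0.44, 0.0898) and *Srebf1* (0.44, 0.376) higher in 8 of 8, without passing. *Mvd* (0.42, adjusted *p* = 0.129) was higher in 7 of 8, with an adjusted *p* of 0.0262 without the library of lowest depth. After the correction for exon length and GC content 3 genes were called, with *Hsd17b7* (0.53) and *Fads1* (-0.64) beside *Pmvk*. Over all genes this corrected fit called 1055 higher and 422 lower of 11985 tested. Among the markers 3 of 7 pluripotency genes were higher and 2 of 4 primed epiblast genes lower, 1 of 5 endoderm, 1 of 3 mesoderm and 1 of 4 neural genes higher and 1 of 3 fibroblast genes lower. By limma 0 of 2 simple epithelium genes were called, and 0 had an unadjusted *p* under 0.05. The pluripotency sums on day 7 were 379 and 419 rpm against 416 rpm in Nons, and the part of these markers was not tested.

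The knockdowns were compared directly, since both share the Nons libraries. Of the 32 genes 2 were called, against 4.09% of all genes, 0 higher in *Smarcc1* than in *Smarca4* knockdown, against 2.55%, and 2 lower, against 1.54%, with 9 at an unadjusted *p* under 0.05, against 16.1%, and a median of -0.11 beside 0. With an estimated correlation between the libraries of a culture, 1 of the 32 was called. Over all genes 77 were then higher and 28 lower, beside 339 and 205. *Cyp51* was lower in *Smarcc1* knockdown by -0.57 (SE 0.0924, limma adjusted *p* = 0.00483). On each day both *Smarcc1* hairpins were below both *Smarca4* hairpins, with 7.41 and 7.52 against 8.23 and 8.48 on day 7. *Pmvk* was lower by -0.48 (SE 0.107, adjusted *p* = 0.0247), again with both hairpins below both on each day, with 5.57 and 5.44 against 6.28 and 6.29 on day 7. For *Sqle*, called in 1 knockdown and not in the other, the difference between them was -0.30 (adjusted *p* = 0.0681), so it was not shown to differ. Both calls were lost in some fits with 3 hairpins. For *Cyp51* the adjusted *p* was 0.0785 without Smarcc1.6, 0.0647 without Smarcc1.7 and 0.123 without Smarca4.6, and for *Pmvk* it was 0.105 without Smarcc1.6, 0.212 without Smarcc1.7, 0.0926 without Smarca4.4 and 0.224 without Smarca4.6. *Pmvk* was also not called after centring (0.0547) or with an estimated correlation within cultures (adjusted *p* = 0.163). *Fads1* was called higher in *Smarcc1* than in *Smarca4* knockdown after centring (0.58, adjusted *p* = 0.0313) and after quantile normalization (0.61, 0.0365). After the correction for exon length and GC content 8 genes were called, *Fads1* higher and *Cyp51*, *Pmvk*, *Mvk*, *Mvd*, *Hsd17b7*, *Sqle* and *Srebf2* lower, and without the library of lowest depth 4 were called, with *Mvk* and *Mvd*. Over all genes the corrected fit called 619 higher and 467 lower of 11985 tested. The fit without that library called 670 higher and 397 lower of 13296. Of 28 markers tested 9 were called, with 3 of 7 pluripotency, 2 of 5 endoderm, 1 of 3 mesoderm and 1 of 3 fibroblast genes higher in *Smarcc1* knockdown and 2 of 2 simple epithelium genes lower, and their part in *Cyp51* and *Pmvk* was not tested.

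The change from day 4 to day 7 was not found to differ between a knockdown and Nons for any of the 32 genes. By limma 0 genes were called for *Smarcc1*, against 0.459% of all genes, and 0 for *Smarca4*, against 0.0827%, and 0 of the 32 had an unadjusted *p* under 0.05 in either, against 7.78% and 4.18%. The estimates ran from -0.55 to 0.76 for *Smarcc1* and from -0.57 to 0.76 for *Smarca4* with a median SE of 0.424, so differences of this size could not be detected with this spread. The estimate for *Pmvk* in *Smarca4* knockdown was 0.76 (SE 0.37), and that for *Tm7sf2* in *Smarcc1* knockdown 0.73 (SE 0.4). With limma-voom on recovered reads the counts were 0 and 0 as well.

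Other genes of the pathways, on a list of 72 of which 67 were tested, also changed over the days. From day 4 to day 7, 46 of 67 were called, against 64.5% of all genes. Of these 36 rose, against 35.7%, and 10 fell, against 28.8%. Of the sterol synthesis genes, *Msmo1* (1.78), a sterol C4 demethylation enzyme that acts after *Cyp51*, and *Erg28* (0.71), a scaffold of the demethylation enzymes, rose. Genes of cholesterol uptake and egress that rose include the lipoprotein receptor genes *Vldlr* (3.31), *Lrp8* (2.52) and *Scarb1* (1.51), the lysosomal lipase *Lipa* (2.39) and the lysosomal cholesterol carriers *Npc2* (1.63) and *Npc1* (1.61). Among genes of SREBP processing and sterol-regulated degradation, *Syvn1* (0.75), *Erlin2* (0.40) and *Ubxn4* (0.28) rose and the ubiquitin ligase gene *Rnf145* (-1.57) fell. The apolipoprotein gene *Apoe* (1.81) rose while the efflux transporter gene *Abca1* (-2.01) and the LXR gene *Nr1h2* (-0.52) fell, and of the esterification and oxysterol genes *Cyp27a1* (3.1) and *Soat1* (0.79) rose and *Soat2* (-3.37) fell.

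Of 7 genes of the isoprenoid branches 4 fell, against 28.8% of all genes, and 1 rose, against 35.7%. *Pdss1* (-1.98) and *Pdss2* (-0.83) of ubiquinone synthesis and *Fntb* (-1.05) and *Pggt1b* (-0.61) of prenylation fell, *Dhdds* (0.86) of dolichol synthesis rose, and *Fnta* (-0.03) and *Nus1* (0.24) did not pass the test. Of 19 further fatty acid synthesis genes 12 rose and 1 fell, unlike *Fasn*, *Acaca* and *Elovl6*. The elongase genes *Elovl7* (3.36), *Elovl1* (1.78), *Elovl4* (0.93) and *Elovl5* (0.57) rose in the mean of the groups, with the elongation cycle genes *Tecr* (0.92), *Hacd1* (0.92) and *Hsd17b12* (0.60), *Me1* (0.79), *Mcat* (0.64), *Slc25a1* (0.55), *Mid1ip1* (0.52) and *Acss2* (0.33), and the second carboxylase gene *Acacb* (-1.31) fell. *Elovl4* was lower on day 7 in both *Smarca4* cultures (2.03 after 2.20 and 2.11 after 2.34 log2 rpm) and *Acss2* in Nons (2.99 after 3.32). Genes of fatty acid activation and use rose in 6 of 9 cases, *Acsl6* (1.96), *Acsl3* (1.30), *Lpin1* (1.07), *Lpin2* (1.05), *Lpcat3* (0.92) and *Cpt1a* (0.80, higher in 4 of 5 cultures), and *Acsl5* (-0.81) fell.

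By step, 18 of the 67 rose, against 19.5% of all genes, and 8 fell, against 19.2%, from day 4 to day 5. The rises ran from *Acsl3* (0.38) to *Vldlr* (3.52) and took in *Msmo1*, *Lrp8*, *Scarb1*, *Npc2*, *Lipa*, *Cyp27a1*, *Fnta*, *Mcat*, *Mid1ip1*, *Elovl4*, *Elovl7*, *Hsd17b12*, *Hacd1* and *Acsl6*, while *Rnf145*, *Erlin1*, *Nr1h2*, *Abca1*, *Soat2*, *Fntb*, *Pggt1b* and *Pdss1* fell, from -0.44 (*Erlin1*) to -1.03 (*Abca1*). From day 5 to day 6, 11 rose, against 17.0%, and 9 fell, against 15.3%. The rises ran from *Dhdds* (0.43) to *Apoe* (1.45), with *Lrp8*, *Npc2*, *Lipa*, *Cyp27a1*, *Elovl1*, *Elovl7*, *Acsl3* and *Acsl6*, and the falls from *Pdss2* (-0.62) to *Soat2* (-1.28), with *Rnf145*, *Mylip*, *Abca1*, *Pdss1*, *Acacb* and *Acsl5*. From day 6 to day 7, 17 rose, against 16.9%, and 4 fell, against 10.6%. Among those that rose were *Ubxn4* (0.32), *Msmo1*, *Syvn1*, *Erlin2*, *Lrp8*, *Lipa*, *Me1*, *Elovl1*, *Elovl5*, *Elovl7*, *Acsl3*, *Lpin1*, *Lpcat3* and *Cpt1a*, and *Soat2*, *Fnta*, *Pdss1* and *Acacb* fell, by -1.11 to -0.48.

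In *Smarcc1* knockdown 7 of the 67 were higher than in Nons, against 7.54% of all genes, and 6 lower, against 3.08%. *Abca1* (1.74, limma adjusted *p* = 0.00021), *Mlxipl* (1.67), *Soat2* (1.63), *Apoe* (0.93), *Acacb* (0.78), *Elovl2* (0.67) and *Acsl6* (0.50) were higher, and *Soat1* (-0.88), *Lipa* (-0.80), *Hacd1* (-0.77), *Cyp7b1* (-0.72), *Mid1ip1* (-0.64) and *Me1* (-0.56) lower. In *Smarca4* knockdown 5 were higher, against 4.75%, and 5 lower, against 1.96%. The higher genes were *Mlxipl* (1.37), *Apoe* (1.34), *Soat2* (1.06), *Abca1* (0.97) and *Elovl2* (0.75), and among the lower were *Elovl4* (-1.20), *Mid1ip1* (-0.85), *Soat1* (-0.79) and *Hacd1* (-0.69). Between the knockdowns *Elovl4* (1.05) and *Abca1* (0.77) were higher in *Smarcc1* knockdown, and *Acsl5* (-0.51) and *Msmo1* (-0.45) lower. With an estimated correlation between the libraries of a culture, 454 of all genes were higher and 151 lower in *Smarcc1* knockdown, beside 1003 and 409. In *Smarca4* knockdown 183 were then higher and 75 lower, beside 631 and 261. Which of the genes named here kept their call in that fit is not reported here. The changes from day 4 to day 7 differed from Nons for 0 of the 67 in either knockdown by limma, with 8 and 5 at an unadjusted *p* under 0.05, against 7.78% and 4.18% of all genes.

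The members did not follow 1 pattern. Across the 20 libraries, which share days and so are not independent, the correlation of a gene with the mean of the standardised values of the 32 was 0.929 for *Lss*, 0.906 for *Dhcr7*, 0.842 for *Mvd* and 0.835 for *Fdft1*, but -0.498 for *Elovl6* and -0.624 for *Ggps1* (Pearson, a description with no test). Among 13197 genes outside the pathway lists, the 8 most like that mean were *Ripk2* (0.905), *2310022B05Rik* (0.884), *Myh14* (0.876), *Igfbp4* (0.873), *Ldoc1l* (0.864), *Lrp10* (0.859), *Cdk18* (0.854) and *Sema4g* (0.851). After the mean of each day was subtracted they were *Slc38a10* (0.88), *1810008A18Rik* (0.828), *Phf2* (0.825), *Rilpl1* (0.821), *Lime1* (0.818), *Pick1* (0.813), *Gm13648* (0.805) and *Pcyt2* (0.803). These lists hold different genes, and the libraries of days 5 and 6 that differ in the length and GC trends enter both.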

How the data were processed

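RNA-seq libraries were made from 24 samples, and 20 have a column of values in the deposited table. The other 4, Nons replicate 2, were not analysed here. According to the submitters' processing notes, the authors demultiplexed reads with bcl2fastq and aligned them with HISAT2 to mm10. The authors deposited log2 rpm values for 25965 entries, in which a gene without reads holds the value of 0.9 of a read. The annotation used and whether counting used strand are not given in the sources used here. Groups follow the sample titles, since a genotype label names a Smarcc knockdown for the *Smarca4* samples.

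From the lowest value of each library the whole reads were recovered, and 100% of values under 1000 reads came out whole to within 0.01. The 3 reads taken as a floor are worth 0.109 to 0.439 rpm and cover counting error only. limma 3.58.1 in R 4.3.3 was fitted on the log2 rpm values (lmFit, eBayes with trend, two-sided) for 13296 entries with a mean of at least 0, with means for 12 combinations of group and day and 8 residual degrees of freedom. Contrasts of knockdowns average the 4 days and contrasts of days average the 3 groups, each with equal weight. Unless an alternative is named, adjusted *p*-values are Benjamini-Hochberg values over the 13296 entries, with a threshold of 0.05. Those of an alternative are over the entries it tested. These were 9307 with a mean of at least 10 rpm, 25965 without a filter and 11985 with the correction for exon length and GC content. No test was made over the list of genes. On recovered reads limma-voom called 1458 genes for *Smarcc1* knockdown, 899 for *Smarca4* knockdown and 8711 for day 7 against day 4, beside 1412, 892 and 8575. The fit was tested on simulated data, but the outcome is not reported here and no result rests on it.

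Exon lengths and overlaps come from GENCODE gene models, and promoters from RefSeq (GRCm38.p6). Tables and figures were made with Python 3.11.15, pandas 2.3.3, NumPy 2.4.6 and Matplotlib 3.10.9. All 32 genes are named, the other pathway genes are named where they passed the threshold, except for some whose results are not reported here, and genes of like pattern are the 8 with the highest correlation. The members and lists were chosen with earlier results of these data known. Genes in the figures of single genes, the promoters shown and the motifs were chosen after values were seen, as was the correction for exon length and GC content. Further alternatives changed the filter (none, or a mean of 10 rpm), the log (1 added to the rpm) or the scaling (centring, quantiles), or used limma-voom, the culture series as a replicate block, or fewer libraries (without each hairpin, without the library of lowest depth).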

Additional observations from a re-analysis of the deposited data

Results flagged for a closer look

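The difference between the 2 knockdowns passed the test for 2 of the 32 genes, against 4.09% of all genes. *Cyp51* was lower in *Smarcc1* than in *Smarca4* knockdown by -0.57 (log2, limma adjusted *p* = 0.00483), with both *Smarcc1* hairpins below both *Smarca4* hairpins on each of the 4 days, and the call was lost without Smarcc1.6, without Smarcc1.7 or without Smarca4.6 (adjusted *p* of 0.0785, 0.0647 and 0.123). *Pmvk* was lower by -0.48 (limma adjusted *p* = 0.0247), with the same order of hairpins on each day, and the call was lost after centring (0.0547), with an estimated correlation within cultures (adjusted *p* = 0.163) and without any 1 of the 4 hairpins (0.0926 to 0.224). In the comparisons with Nons, *Cyp51* was lower in *Smarcc1* knockdown (-0.54) and not called in *Smarca4* knockdown (0.04), and *Pmvk* was higher in *Smarca4* knockdown (0.63) and not called in *Smarcc1* knockdown (0.15). With an estimated correlation within cultures the adjusted *p* of these 2 calls against Nons was 0.0536 for *Cyp51* and 0.0928 for *Pmvk*, and neither was called. Between the knockdowns 9 of 28 cell type markers were also called, and causes of these differences were not tested.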

How the results depend on the processing

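Over 13 alternatives, 3395 of the member results kept their direction and side of the threshold, 131 were no longer called, 64 became called, 153 uncalled values changed sign, and 1 turned direction: *Scap*, day 7 against day 4, at -0.37 (adjusted *p* = 0.00314) with the correction for exon length and GC content, which was chosen after seeing the data. The median change of the 32 genes did not move beyond the spread between hairpins (0.214) under any alternative run. The cause was not tested for any of the counts below, other than that a stricter filter tests fewer genes and leaving out libraries leaves fewer samples. Each Nons day is a single library, so leaving out Nons was not run, and depth limits the smallest library, Smarca4.4 on day 5.

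With a mean of at least 10 rpm, genes called were 579 (*Smarcc1*), 324 (*Smarca4*), 241 (between the knockdowns), 3420 (day 5 against 4), and 11 and 0 (day 4 to 7 change in *Smarcc1* and *Smarca4* knockdown against Nons). That change in *Smarcc1* knockdown gave 19 with 1 added to the rpm and 6 after quantile normalization, and in *Smarca4* knockdown 1 without a filter, 1 with 1 added, 0 after quantile normalization and 4 with limma-voom. Members called for *Smarca4* knockdown were 3 after centring, 2 after quantile normalization and 2 with limma-voom. Over all genes these fits called, in the same order, 541 higher and 353 lower, 351 and 313, and 611 and 288. For day 7 against 6 after centring, 6 members were called, beside 1407 of all genes higher and 2278 lower. Without the library of lowest depth, 1067 genes and 4 members were called between the knockdowns. Members called were then 3 for *Smarca4* and 6 for day 6 against 5. Over all genes that fit called 756 higher and 388 lower for *Smarca4*, and 2274 and 1968 for day 6 against 5. Corrected for length and GC, genes called were 1477 (*Smarca4*), 1086 (between the knockdowns), 225 and 19 (the 2 changes over days), and members called 4 (*Smarcc1*), 3 (*Smarca4*) and 8 (between the knockdowns). For *Smarcc1* knockdown that fit called 1466 genes higher and 641 lower, and it tested 11985 genes.

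The replicate block was the culture series (estimated correlation 0.217), since hairpin numbers pair no cultures across groups. With the block, genes called were 605 (*Smarcc1*), 258 (*Smarca4*), 105 (between the knockdowns), 175 and 20 (the 2 changes over days), and members called 1, 0 and 1 in the first 3. Deviations of hairpins correlated between days at 0.0233 to 0.823 for *Smarcc1* and -0.206 to 0.367 for *Smarca4* across genes.

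With each hairpin left out in turn, where the remaining hairpin is assumed to vary like the other groups, genes called ranged over 843 to 1288 (*Smarcc1*), 277 to 656 (*Smarca4*), 49 to 263 (between the knockdowns), 3179 to 5030 (day 5 against 4), 1061 to 4031 (day 7 against 6), 0 to 8 (*Smarcc1* change over days) and 0 to 0 (*Smarca4*). Members called ranged over 1 to 2, 0 to 1 and 0 to 1 for the knockdown comparisons, 8 to 13 (day 5 against 4), 3 to 7 (day 6 against 5), 3 to 11 (day 7 against 6) and 21 to 24 (day 7 against 4).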
